A study of Mus musculus with 8 samples.

Results

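The interferon response genes are those that cells switch on when interferon, a cytokine released in viral infection and inflammation, binds its receptors. A list of 42 of them was examined in gonadal white fat of mice lacking RAP1, a telomere-binding protein that also occupies sites along chromosome arms. The list covers transcription factors, nucleic acid sensors, antiviral effectors, GTPases and antigen processing genes. The genes are given by name, and they were chosen with earlier results of these data known. A total of 40 of the 42 genes had a named probe on the array. Mx1 and Mx2, which encode antiviral GTPases, had no probe matched through a RefSeq accession. The 1 probe of Oas3 was not well above background on any array. The other 39 genes were well above background on all 8 arrays, among 25064 genes or other transcribed features tested.

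Total RNA came from 4 Rap1-/- mice and 4 wild-type (WT) mice, with 1 one-colour array for each animal. All mice were 10 weeks old and had a C57BL6/129SV background in a proportion of 90% to 10%, and the study describes them as young females sampled before the knockout becomes obese. Rap1-/- mice descend from crosses of Rap1 flox/flox mice with mice expressing cre from the adenovirus EIIa promoter, active in the early embryo, so the gene is lost throughout the body and not in fat alone. The cre transgene was later bred out of the colony. The labels name no interferon treatment or infection in either genotype.

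Type I interferons signal through the receptor pair Ifnar1 and Ifnar2 and the kinases Jak1 and Tyk2 to a complex with STAT2 and IRF9, which binds the interferon-stimulated response element (ISRE). Interferon gamma acts on another element, the GAS. IRF7, itself induced, drives further interferon production. In adipose tissue these genes are expressed by adipocytes, their precursors and resident immune cells.

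The sequences just before the gene starts were searched for these elements. RefSeq (GRCm38.p6) gave a window of 250 bases before a listed start for 32 of the 42 genes. That start is not always the outermost start of the gene. The ISRE core, a pair of GAAA words with any 2 bases between them, read on both strands, was present in 13 of these 32 (40.6%), against 3.46% of 27025 genes with such a window. The GAS core TTCNNNGAA, which reads the same on both strands, was present in 9 (28.1%) against 8.13%, and in Bst2 it overlapped an ISRE match. The telomeric repeat TTAGGG, the sequence RAP1 is known for at chromosome ends, was present in 4 of the 32 and in 2880 of the 27025 genes. The study describes 2 such repeats in tandem as the motif RAP1 prefers. That tandem was present in 0 of the 32 and in 2 of the 27025 genes. A match is a description of the letters and not a site shown to be bound in fat.

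The windows of 4 genes are printed because 3 of them, Rsad2, Cmpk2 and Irf7, had array values that did not overlap between the genotypes on the scale used here, and Isg15 is a classical target. Capitals mark ISRE matches, and all sequences run 5′ to 3′ along the gene.
Rsad2, chr12:26456453-26456702, minus strand: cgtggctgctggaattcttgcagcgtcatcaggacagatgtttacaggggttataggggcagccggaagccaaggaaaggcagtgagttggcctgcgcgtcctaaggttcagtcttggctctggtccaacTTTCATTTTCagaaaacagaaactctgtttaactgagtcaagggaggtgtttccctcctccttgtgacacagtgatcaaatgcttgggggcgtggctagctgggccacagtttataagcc
Isg15, chr4:156200819-156201068, minus strand: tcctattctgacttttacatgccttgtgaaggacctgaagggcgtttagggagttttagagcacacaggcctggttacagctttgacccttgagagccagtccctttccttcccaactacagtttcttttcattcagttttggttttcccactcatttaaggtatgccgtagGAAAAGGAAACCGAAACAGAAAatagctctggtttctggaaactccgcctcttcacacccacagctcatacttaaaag
Cmpk2, chr12:26468965-26469214, plus strand: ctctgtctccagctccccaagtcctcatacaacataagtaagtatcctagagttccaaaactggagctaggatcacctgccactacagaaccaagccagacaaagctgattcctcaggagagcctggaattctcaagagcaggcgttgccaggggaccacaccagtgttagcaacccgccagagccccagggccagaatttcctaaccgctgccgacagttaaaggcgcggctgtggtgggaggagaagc
Irf7, chr7:141266425-141266674, minus strand: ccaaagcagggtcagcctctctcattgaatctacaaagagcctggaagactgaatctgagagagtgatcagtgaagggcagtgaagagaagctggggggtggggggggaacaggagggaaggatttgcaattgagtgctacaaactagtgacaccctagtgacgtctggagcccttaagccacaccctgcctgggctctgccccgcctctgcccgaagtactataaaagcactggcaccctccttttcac
Isg15 held 3 overlapping ISRE matches, Rsad2 held 1 in the reverse orientation, and the windows of Irf7 and Cmpk2 held 0. The annotated genes begin inside these last windows, at 141266499 for Irf7 and 26469117 for Cmpk2. Part of each window thus lies within the gene, and the sequence further upstream was not searched. Rsad2 and Cmpk2 lie beside each other on chromosome 12 on opposite strands.

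Shorter stretches around the matches are given for 4 further genes, to show that the same core recurs in different families. The annotated Oas1a gene begins at 120907544, so most of its capitals lie within the gene.
Ifit1, chr19:34640770-34640828, plus strand: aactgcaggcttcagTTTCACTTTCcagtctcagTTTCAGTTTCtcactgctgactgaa
Oas1a, chr5:120907526-120907560, minus strand: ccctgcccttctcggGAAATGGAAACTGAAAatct
Irgm1, chr11:48871421-48871465, minus strand: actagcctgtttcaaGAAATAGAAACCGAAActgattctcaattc
Stat2, chr10:128270261-128270300, plus strand: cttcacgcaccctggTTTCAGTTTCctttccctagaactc
Among tested genes with a window, the median difference between Rap1-/- and WT was -0.25 on the log2 scale for the 12 with an ISRE match and -0.11 for the 19 without, with 11 and 17 of them lower in Rap1-/-. For GAS matches the medians were -0.15 for the 9 with and -0.20 for the 22 without. These are descriptions with no test.

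The arrays differed in brightness. The 75th percentile of the processed signal was 392 to 497 intensity units on the Rap1-/- arrays and 302 to 431 on the WT arrays. Background was clearly exceeded by 59.7% to 65.2% of spots, and none was saturated (0 spots). On 1 probe of Terf2ip, the gene for RAP1, all 4 WT arrays read 0.06 to 0.49 and all 4 Rap1-/- arrays -7.58 to -7.13, as the labels have it, while its other probe read higher in Rap1-/- (0.84 to 1.06 against -1.49 to -1.27). Adipocyte markers were bright throughout, with per-array means of 7.01 to 7.35. Skeletal muscle markers varied the most, from -2.94 to 5.39 in Rap1-/- and from 1.29 to 4.03 in WT. WT arrays lay at positions 1 and 2 and Rap1-/- arrays at positions 3 and 4 of each of 2 slides, so position and genotype cannot be told apart. The number of arrays limits the precision of every value, and p-values measure the spread between these 8 animals.

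All values below are log2 signals with the 75th percentile of that array subtracted, and a difference is the mean of Rap1-/- minus the mean of WT. Of the 39 genes, 36 were lower in Rap1-/- and 3 were higher, although scaling to the E1A spike-in RNA turned this to 17 lower and 22 higher. The median difference was -0.19, a signal 1.14-fold lower, against -0.04 over all 25064 features, of which 59.9% were lower. E1A scaling adds 0.23 to every difference, which moved the median of the 39 genes to 0.04 and that of all features to 0.19, so the distance between the medians was -0.15 on both scales. The E1A signal above the 75th percentile was 3.57 on WT 3. It was 2.96 to 3.15 on the other WT arrays and 2.89 to 3.07 on the Rap1-/- arrays. The 0.23, and the sign turns it brings, thus rest in large part on WT 3.

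None of the 39 genes passed an adjusted p of 0.05 (limma, Benjamini-Hochberg over all features, smallest adjusted p = 0.874), a threshold that 0.00399% of all features passed. At an unadjusted p under 0.05, 4 genes were called and all 4 were lower, against 4.98% of all features in either direction and 3.31% in the lower direction. In 3 genes, Irf7, Rsad2 and Cmpk2, the highest Rap1-/- value was below the lowest WT value, against 2.36% of all features. This separation depended on the scaling: Rsad2 and Cmpk2 kept it with quantile normalisation (2 genes, against 1.41% of all features), and 0 of the 39 did with normexp correction (2.08%), in the deposited table (1.22%), with median scaling (1.30%) or with E1A scaling (0.156%). As shares of the 39 genes these counts are 10.3% and 7.69%, and they rest on 4 and 3 genes. At an unadjusted p under 0.05, 0 genes were higher, against 1.67% of all features.

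**Figure D1:**
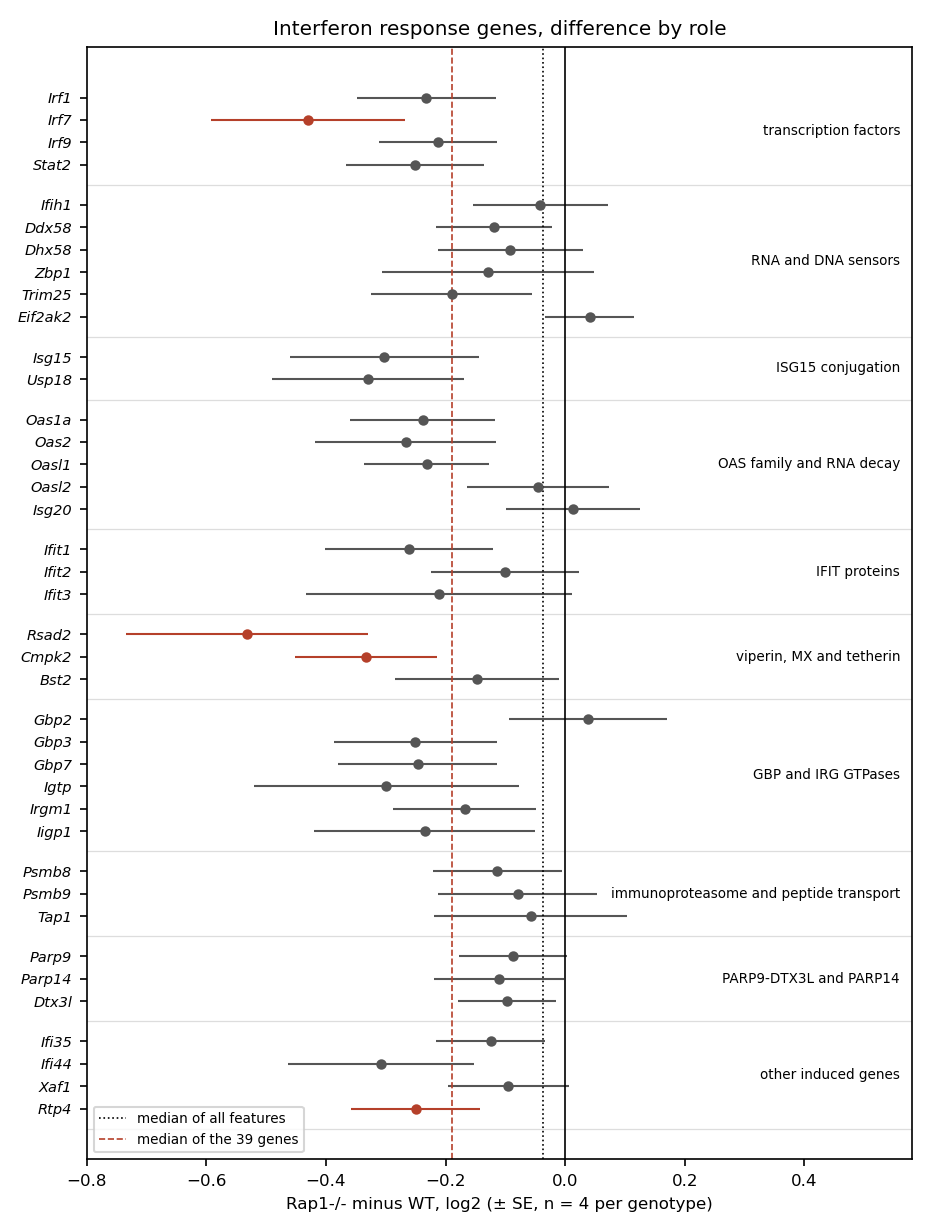
Difference between Rap1-/- and WT for each of the 39 genes (horizontal axis, log2, points with standard errors, n = 4 per genotype), grouped by role; red marks an unadjusted p under 0.05. A total of 36 points lie left of 0 with a median of -0.19, against -0.04 for all features; scaling to the E1A spike-ins would move every point right by 0.23.

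The transcription factors were Irf1, Irf7, Irf9 and Stat2, and all 4 were lower in Rap1-/-, with a median of -0.24 that became -0.01 on the E1A scale. Irf7, the factor that amplifies interferon production, read -0.57, -0.44, -0.28 and -0.18 on the Rap1-/- arrays and -0.18, -0.18, 0.16 and 0.44 on the WT arrays. The genotypes did not overlap, but the highest Rap1-/- array and the lowest WT arrays were nearly level, and the WT values were spread more widely. The difference was -0.43 ± 0.16 (SE), a signal 1.35-fold lower (limma p = 0.028, adjusted p = 0.874, exact two-sided permutation p = 0.0286, the smallest that 4 and 4 arrays can give). It was -0.33 within slide 1 and -0.53 within slide 2.

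Irf9 and Stat2, partners in the ISRE-binding complex, differed by -0.21 ± 0.10 and -0.25 ± 0.12, and Irf1, which responds early to interferon gamma, by -0.23 ± 0.12. In Irf9 the 4 Rap1-/- arrays were close together, from 2.11 to 2.16, and WT 1 at 2.12 lay among them while the other WT arrays read 2.34 to 2.53.

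Among 6 sensors of foreign nucleic acid, 5 were lower in Rap1-/-, with a median of -0.11 that became 0.13 on the E1A scale with all 6 higher. Trim25, a ubiquitin ligase that activates RIG-I, read 4.70, 4.21, 4.44 and 4.65 on the Rap1-/- arrays and 4.59, 4.85, 4.79 and 4.52 on the WT arrays. Rap1-/- 2 was low and the other arrays overlapped (difference -0.19 ± 0.13). Ddx58, which encodes RIG-I itself, differed by -0.12 ± 0.10, and the related helicases Ifih1 and Dhx58 by -0.04 ± 0.11 and -0.09 ± 0.12. Zbp1, a sensor of Z-form nucleic acid, differed by -0.13 ± 0.18 and Eif2ak2, the kinase PKR that halts translation, by 0.04 ± 0.07.

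ISG15 is a ubiquitin-like modifier, and USP18 removes it from proteins and dampens interferon receptor signalling. Usp18 read -0.23, -0.27, -0.13 and -0.24 on the Rap1-/- arrays and -0.27, 0.01, 0.53 and 0.18 on the WT arrays. WT 1 lay as low as the lowest Rap1-/- array, and the other 3 WT arrays lay above all Rap1-/- arrays (difference -0.33 ± 0.16, limma p = 0.072, exact permutation p = 0.114). Isg15 differed by -0.30 ± 0.16, and its dimmer probe by -0.37 ± 0.21. On the E1A scale the median of the pair stayed below 0, at -0.09.

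The 2′,5′-oligoadenylate synthetases make the messenger that activates RNase L. Of their 4 measured genes and Isg20, an RNA exonuclease, 4 were lower in Rap1-/-, with a median of -0.23 that became -0.00 on the E1A scale. Oasl1, a synthetase-like protein reported to restrain Irf7 translation, read 0.02, 0.19, 0.03 and 0.24 on the Rap1-/- arrays and 0.14, 0.51, 0.37 and 0.38 on the WT arrays. Only WT 1 fell within the Rap1-/- range (difference -0.23 ± 0.10, limma p = 0.056, exact permutation p = 0.0857). Oas1a and Oas2 differed by -0.24 ± 0.12 and -0.27 ± 0.15, Oasl2 by -0.05 ± 0.12 and Isg20 by 0.01 ± 0.11. The Oas genes are close relatives, and a probe can take up RNA of a paralog.

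The IFIT proteins bind viral RNA, and all 3 genes were lower in Rap1-/-, with a median of -0.21 that became 0.02 on the E1A scale. Ifit1 read -1.25, -1.25, -1.11 and -1.19 on the Rap1-/- arrays and -1.21, -0.98, -1.02 and -0.55 on the WT arrays. Ifit3 read 1.94, 2.33, 2.07 and 1.42 on the Rap1-/- arrays and 2.28, 1.88, 1.90 and 2.54 on the WT arrays, and its residual SD of 0.35 was the largest of the 39 genes. The differences were -0.26 ± 0.14 and -0.21 ± 0.22, and that of Ifit2 was -0.10 ± 0.12. Each rested in part on 1 array: Ifit1 differed by -0.13 without WT 4, Ifit3 by -0.039 without Rap1-/- 4 and Ifit2 by -0.034 without Rap1-/- 2. Leaving out 1 array moved the difference by over 1.5 times in 30 of the 39 genes.

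Rsad2 encodes viperin, an enzyme that makes a chain-terminating nucleotide from CTP, and its neighbour Cmpk2 encodes a mitochondrial kinase that supplies CTP. Rsad2 read 0.42, 0.11, 0.05 and 0.38 on the Rap1-/- arrays and 0.68, 0.60, 1.36 and 0.44 on the WT arrays. The genotypes did not overlap, WT 4 lay just above the highest Rap1-/- array, and WT 3 stood well above the rest. The difference of -0.53 ± 0.20, a signal 1.45-fold lower, was the largest of the list (limma p = 0.030, adjusted p = 0.874, exact permutation p = 0.0286), and without WT 3 it was -0.33.

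Cmpk2 had the smallest p of the list. It read -0.47, -0.83, -0.56 and -0.53 on the Rap1-/- arrays and -0.43, -0.30, -0.04 and -0.30 on the WT arrays, without overlap. The difference was -0.33 ± 0.12, a signal 1.26-fold lower (limma p = 0.022, adjusted p = 0.874, exact permutation p = 0.0286), and on a dimmer probe it was -0.27 ± 0.16. Bst2, which encodes tetherin and holds budding virus at the cell surface, differed by -0.15 ± 0.14. The median of the 3 genes was -0.33 and -0.10 on the E1A scale. Within the slides Rsad2 differed by -0.38 and -0.69 and Cmpk2 by -0.29 and -0.38.

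**Figure D2:**
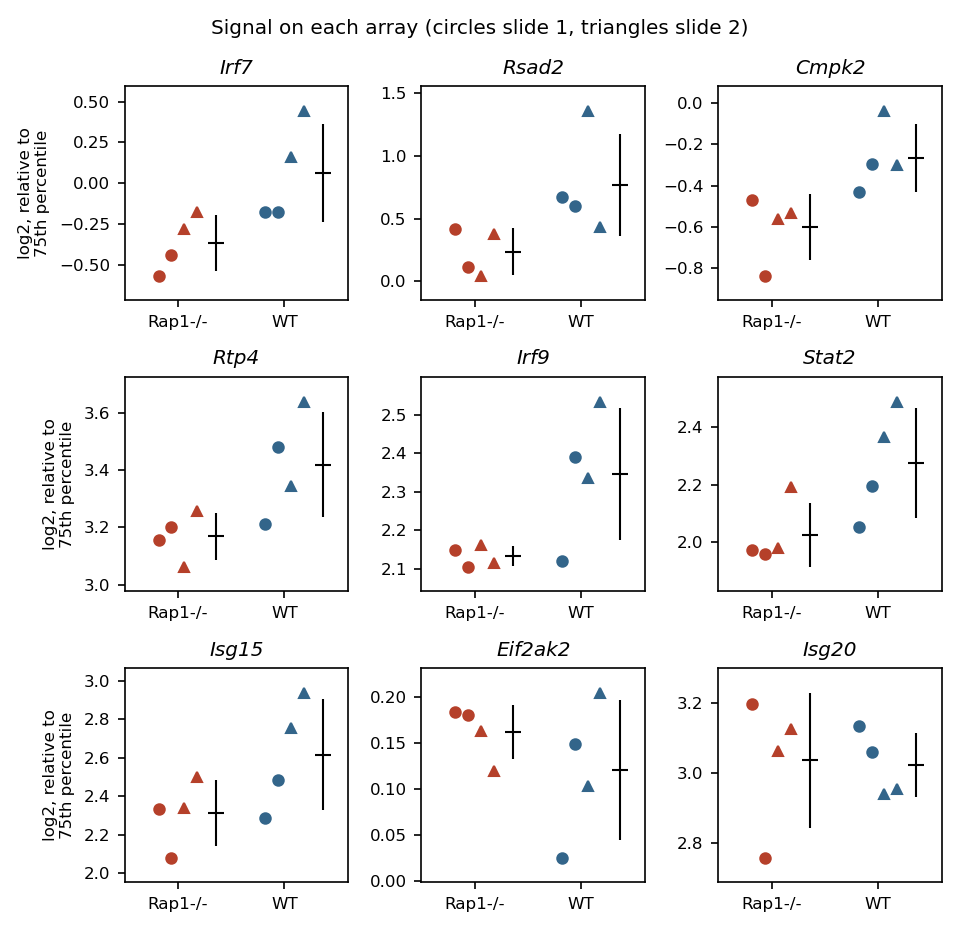
Signal of 9 genes on each array (log2 after subtracting the 75th percentile, on the vertical axis; circles slide 1, triangles slide 2; bars mean ± SD, n = 4 per genotype). Irf7, Rsad2 and Cmpk2 do not overlap between genotypes. WT 1 reads among the Rap1-/- arrays in Irf9, as do WT 1 and WT 2 in Isg15. Eif2ak2 and Isg20 show no lower signal in Rap1-/-. E1A scaling shifts each array by its own amount and raises the difference between the means by 0.23. It makes Irf7, Rsad2 and Cmpk2 overlap.

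The guanylate-binding proteins and immunity-related GTPases attack vacuoles that hold pathogens. Of their 6 genes, 5 were lower in Rap1-/-, with a median of -0.24 that became -0.01 on the E1A scale, and within slide 1 the median was 0.09 with 5 of 6 higher. Gbp7 read 0.28, -0.26, -0.03 and 0.08 on the Rap1-/- arrays and 0.11, 0.36, 0.16 and 0.42 on the WT arrays (difference -0.25 ± 0.13). Igtp read 2.62, 2.88, 2.13 and 2.84 on the Rap1-/- arrays and 2.50, 2.75, 3.15 and 3.27 on the WT arrays, a difference of -0.30 ± 0.22 with the arrays of slide 2 far apart and those of slide 1 overlapping. Gbp3 and Irgm1 differed by -0.25 ± 0.14 and -0.17 ± 0.12, Iigp1 by -0.23 ± 0.18, and Gbp2 by 0.04 ± 0.13. These families have many close paralogs, so their probes are uncertain.

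Psmb8 and Psmb9 are catalytic subunits of the immunoproteasome, and Tap1 carries its peptides to MHC class I molecules. All 3 were lower in Rap1-/- by little, with a median of -0.08 that became 0.15 on the E1A scale. Psmb8 read 3.57, 3.30, 3.34 and 3.46 on the Rap1-/- arrays and 3.30, 3.56, 3.67 and 3.59 on the WT arrays, and the ranges overlapped (difference -0.11 ± 0.11). Parp9, Parp14 and Dtx3l, which act in ADP-ribosylation and ubiquitination, had a median of -0.10, and 0.13 on the E1A scale. Dtx3l read 1.94, 1.87, 1.83 and 1.82 on the Rap1-/- arrays and 1.86, 2.01, 2.07 and 1.90 on the WT arrays.

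Of the remaining genes, Ifi35, Ifi44, Xaf1 and Rtp4, all 4 were lower in Rap1-/-, with a median of -0.19 that became 0.04 on the E1A scale. Rtp4, a chaperone of receptors that is induced by interferon, read 3.16, 3.20, 3.06 and 3.26 on the Rap1-/- arrays and 3.21, 3.48, 3.35 and 3.64 on the WT arrays. WT 1 overlapped the Rap1-/- arrays (difference -0.25 ± 0.11, a signal 1.19-fold lower, limma p = 0.049, adjusted p = 0.874, exact permutation p = 0.0571), and on the E1A scale the difference was -0.02. Ifi44 differed by -0.31 ± 0.16.

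**Figure D3:**
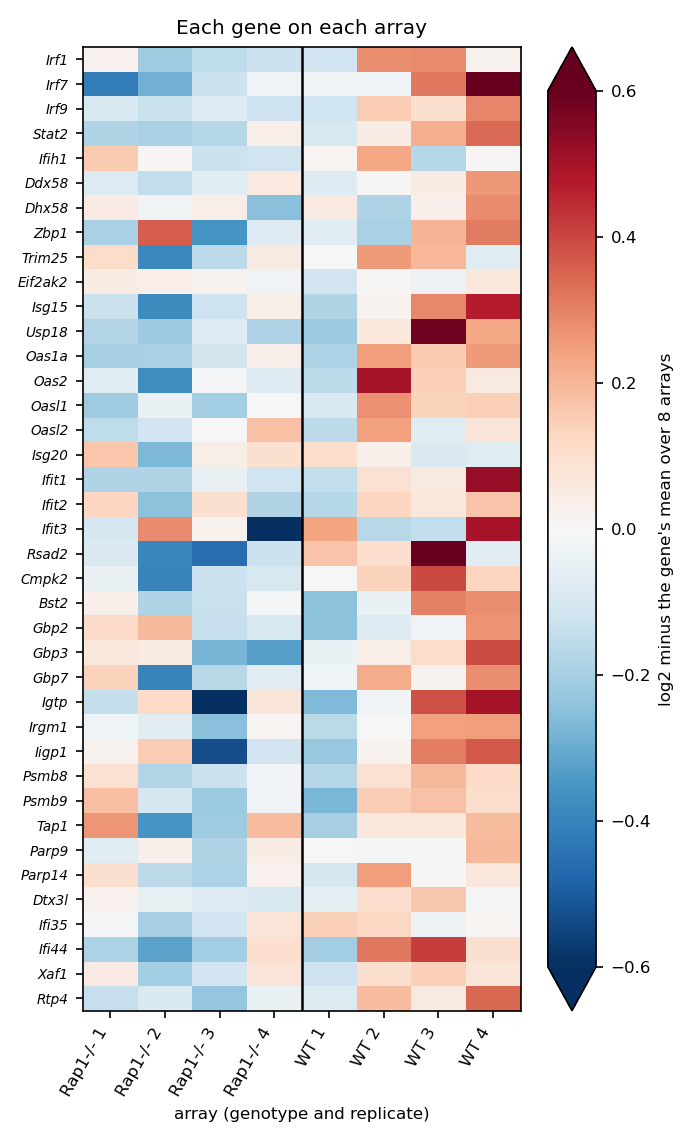
Each of the 39 genes on each of the 8 arrays (colour, log2 signal minus the gene's mean over all arrays, red above and blue below). WT 4 holds the highest value for 19 genes and Rap1-/- 2 the lowest for 17, and WT 1 is paler and bluer than the other WT arrays.

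The arrays did not split cleanly by genotype. The mean of the 39 genes, each centred over all arrays, was -0.03, -0.14, -0.15 and -0.05 on the Rap1-/- arrays and -0.09, 0.10, 0.16 and 0.21 on the WT arrays. WT 1 thus lay within the Rap1-/- range, and the other 3 WT arrays lay above it. On the E1A scale the same means were 0.16, 0.04, -0.14 and 0.04 on the Rap1-/- arrays and -0.16, 0.22, -0.33 and 0.18 on the WT arrays, with WT 3 the lowest of the 8. WT 4 was the highest array for 19 of the 39 genes and WT 3 for 9, while Rap1-/- 2 was the lowest for 17 and Rap1-/- 3 for 8. Over all features WT 4 was the highest for 8.32%, WT 3 for 24.0% and Rap1-/- 2 the lowest for 17.9%. Without WT 1 the median difference was -0.25 and 14 genes had an unadjusted p under 0.05, against 3.30% of all features. Without Rap1-/- 2 the median was -0.17 with 0 such genes (3.93% of all features). Without WT 4 it was -0.13 with 2 (6.12%). The median was -0.10 within slide 1, with 27 genes lower, and -0.26 within slide 2, with 37 lower.

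Correlation between members among animals of the same genotype was also described. After the genotype means were removed, the median correlation over the 741 pairs of genes was 0.36 across the 8 arrays, and 79.2% of pairs were positive. These genes share their arrays, so this is a description. The same values over all features are not given beside it, so the correlation cannot be called particular to these genes. Bst2, Psmb8 and Irgm1 followed the mean of the others most closely (r = 0.92, 0.90 and 0.90), and Ifit3 ran against it (r = -0.29). The median residual SD of the 39 genes was 0.17, against 0.20 over all features.

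**Figure D4:**
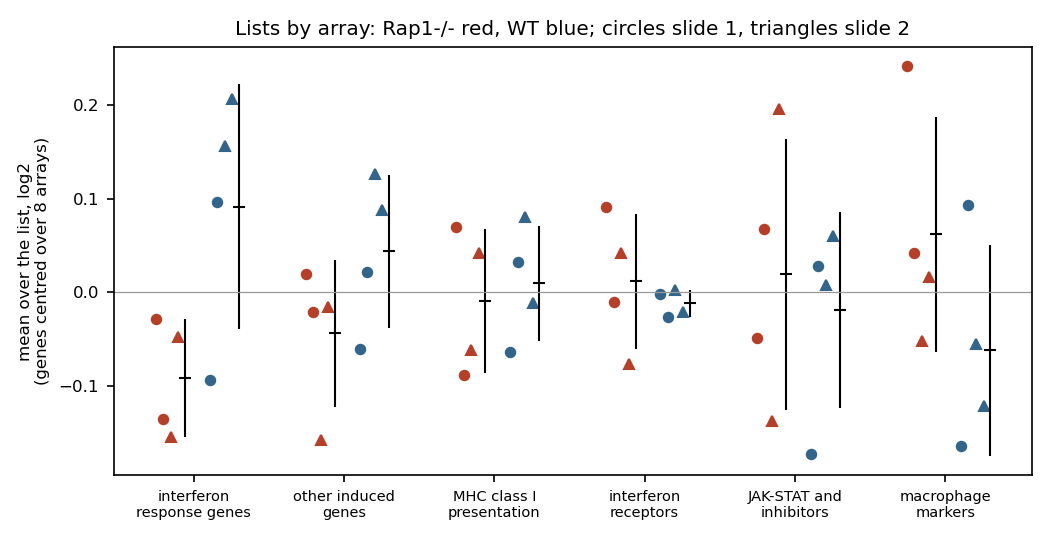
Mean of each gene list on each array (vertical axis, log2, genes centred over 8 arrays; circles slide 1, triangles slide 2; bars mean ± SD, n = 4). The interferon response genes average -0.09 in Rap1-/- and 0.09 in WT with WT 1 among the Rap1-/- arrays, while receptors average 0.01 and -0.01; E1A scaling shifts each array by its own amount, raises the difference between the means by 0.23 and makes WT 3 the lowest array for the interferon response genes.

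The pathway above these genes was measured on the same arrays. Of 19 interferon ligand genes, 11 were tested, all of them dim, and 10 were lower in Rap1-/- (median -0.22, and 0.01 on the E1A scale). Ifna2 read -3.78, -3.60, -3.35 and -3.47 on the Rap1-/- arrays and -3.17, -3.40, -2.88 and -3.18 on the WT arrays (difference -0.39 ± 0.14, limma p = 0.021, exact permutation p = 0.0571). The interferon alpha genes are near-identical copies, so the probe may not be particular to 1 of them. The 6 receptor chains were split evenly, 3 lower and 3 higher (median 0.04). Ifnar1 differed by -0.14 ± 0.09, Ifngr1 by -0.09 ± 0.09 and Il10rb by 0.12 ± 0.09.

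Of 14 JAK-STAT genes and their inhibitors, 6 were lower and 8 higher (median 0.01, 0 at an unadjusted p under 0.05). Socs3, a feedback inhibitor of cytokine receptors, differed by 0.30 ± 0.17 and the phosphatase gene Ptpn11 by 0.11 ± 0.08. Of 21 further sensing genes, 11 were lower and 10 higher (median -0.01). Adar, which edits double-stranded RNA and keeps it from its sensors, read 1.26, 1.08, 1.15 and 1.31 on the Rap1-/- arrays and 1.37, 1.42, 1.66 and 1.40 on the WT arrays, without overlap (difference -0.26 ± 0.10, limma p = 0.028, exact permutation p = 0.0286). Sting1, the adaptor of cytosolic DNA sensing, was above WT on every Rap1-/- array, by 0.18 ± 0.09 (limma p = 0.091, exact permutation p = 0.0286), and Tlr3 differed by 0.49 ± 0.28, and by 0.23 without Rap1-/- 1.

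Of 63 other interferon-stimulated genes, 56 were tested, and 41 of them were lower in Rap1-/- (median -0.09, and 0.14 on the E1A scale with 46 higher). Slfn5 differed by -0.42 ± 0.12 without overlap, and Gvin1, a very large GTPase, by -0.54 ± 0.17. Gbp8, a dim gene, differed by 0.94 ± 0.37 in the other direction, and by 0.58 without Rap1-/- 2. Of 17 genes of MHC class I presentation, 10 were lower and 7 higher (median -0.02). Tap2 was lower on every Rap1-/- array (-0.16 ± 0.08), Psmb10 differed by -0.11 ± 0.09 and by -0.051 without Rap1-/- 3, and Pdia3, a chaperone of peptide loading, was higher on every Rap1-/- array (0.23 ± 0.10, limma p = 0.047, exact permutation p = 0.0286). Over all features, 2.36% were lower and 0.898% higher in Rap1-/- without overlap. On the E1A scale 6 of 6 receptor chains, 13 of 14 JAK-STAT genes, 20 of 21 sensing genes and 16 of 17 MHC class I genes were higher in Rap1-/-, Tap2 among the latter at 0.073, and Adar, Sting1, Slfn5, Tap2 and Pdia3 all overlapped between the genotypes. Tap2 also overlapped with normexp correction, in the deposited table, and with median scaling and quantile normalisation. Adar, Sting1 and Pdia3 also overlapped with median scaling, Sting1 with quantile normalisation, and Slfn5 in the deposited table. None of the tested genes in these 6 lists passed an adjusted p of 0.05 (limma). Those at an unadjusted p under 0.05 were 1 of 11 ligands and 1 of 21 sensing genes. They also included 3 of 56 other interferon-stimulated genes, 1 of 17 MHC class I genes and 0 in the receptor and JAK-STAT lists. Over all features the share was 4.98%.

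Markers of the cells that express these genes are given beside them. In bulk tissue, fewer cells of a type and less RNA per cell cannot be told apart. Macrophage markers were higher in Rap1-/- for 9 of 11 genes (median 0.15, per-array means 2.05 to 2.34 in Rap1-/- and 1.94 to 2.19 in WT). Neutrophil markers were lower for 4 of 4 (median -0.24, -0.42 to 0.55 against -0.17 to 0.93). Plasmacytoid dendritic cell markers were lower for 4 of 5 (median -0.11), with Bst2 counted in that list too and Cox6a2, which muscle also expresses, at -1.26. Siglech, whose difference is that median, read 7.32 to 7.74, as bright as the adipocyte means of 7.01 to 7.35. Ccr9 was dim, at -4.52 to -3.49, so this list says little about these cells. T and NK cell markers were higher for 6 of 9 (median 0.03). Adipocyte markers were lower for 6 of 7 (median -0.27), mesothelial markers higher for 7 of 7 (median 0.63), and muscle markers lower for 10 of 10 (median -1.40). On the E1A scale, which adds 0.23 to each of these medians, macrophage markers were higher for 11 of 11 and the plasmacytoid dendritic cell median turned to 0.12. Muscle markers were highest on Rap1-/- 2 and Rap1-/- 3, at 5.39 and 4.20, where the 39 genes were lowest. They were next highest on WT 1, at 4.03, where the 39 genes were lowest among the WT arrays, at -0.09. They were also high on WT 4, at 4.00, where the 39 genes were highest. Cd68, Runx2, Cd8a, Trac, Ncr1, Ly6g and Ngp were not among the tested markers, for want of a matched probe or of signal above background. The part of cell composition in the differences was not tested.

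**Figure D5:**
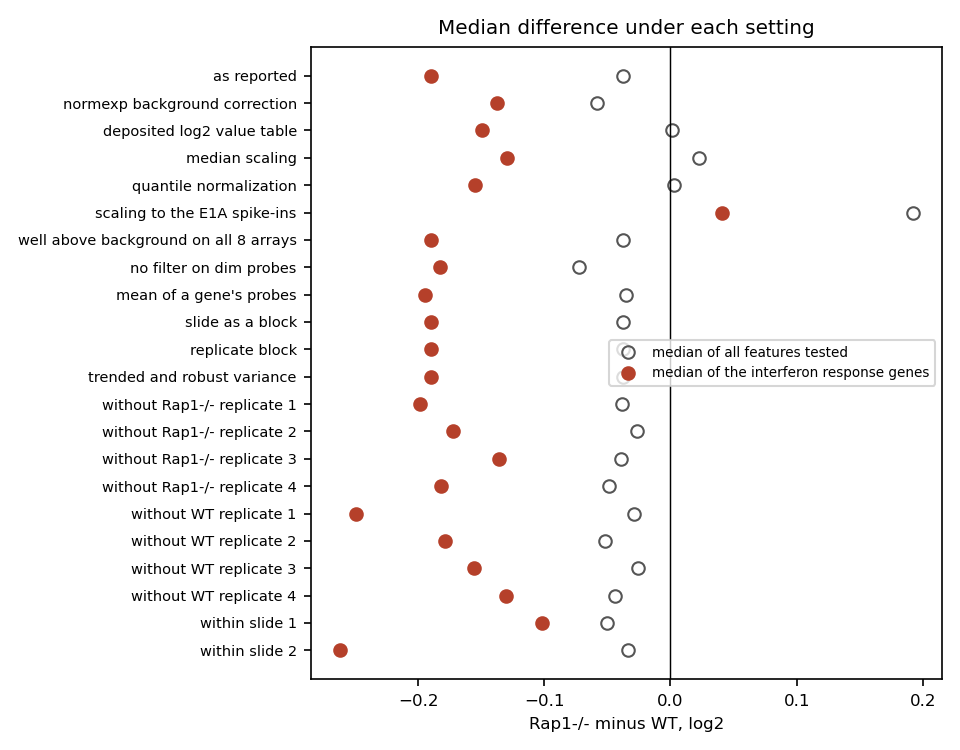
Median difference of the interferon response genes (filled) and of all features (open) under each setting (horizontal axis, log2). The filled point lies left of the open one in every setting shown, and is above 0 at 0.04 with E1A scaling alone.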

How the data were processed

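Cy3-labelled RNA was put on Agilent mouse arrays by the authors. The headers name Feature Extraction 10.7.3.1, whereas the methods name another version, and mm9 as the build of the design. The deposited scanner files hold linear intensity values per spot, not normalised between arrays, with flags for spot quality. The deposited table of values, on the log2 scale, matched normexp (offset 50) with quantile normalisation on every array.

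The processed signal was log2-transformed, each array's 75th percentile was subtracted, and replicate spots without outlier flags were averaged. Probes had to be well above background on 4 or more of 8 arrays. RefSeq accessions (GRCm38.p6) named 26050 of 55681 probes (46.8%), and 13 probes lacking a value were left out. The brightest kept probe stood for a gene. Probes without a name were tested under their own identifier. Genotypes, taken from the labels, were compared with limma 3.58.1 (lmFit, eBayes, Benjamini-Hochberg) in R 4.3.3, tested on simulated data. Exact permutation tests used all 70 assignments. Figures used matplotlib 3.10.9 in Python 3.11.15.

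The members and lists were chosen with earlier results of these data known. Every array value is given for the gene with the smallest p in each role, for genes with an unadjusted p under 0.05 or without overlap, and for the 3 with the largest residual SD. Of the other pathway lists, the 3 genes with the smallest p and those under 0.05 are named. The values of 1 gene that this rule names are not reported here. Alternatives covered background correction, scaling, filters, probe choice, blocks, the variance model and the omission of single arrays. For normexp the median spot signal was taken, as the mean was not in the files used here. Unadjusted counts are descriptions.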

Additional observations from a re-analysis of the deposited data

Results flagged for a closer look

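In 4 of 114 groups of 4 arrays, 1 array lay far from the other 3, where chance gives about 1 in 20. Among the interferon response genes these were Stat2 in Rap1-/-, where replicate 4 read 2.19 and the next array 1.98, Parp9 in WT, where replicate 4 read 2.84 and the next 2.65, and Psmb9 in WT, where replicate 1 read 3.28 and the next 3.66. Outside the list it was Sting1 in WT, where replicate 1 read 1.55 and the next 1.79.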

How the results depend on the processing

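None of the 39 genes passed an adjusted p of 0.05 under any setting. Counts at an unadjusted p under 0.05 follow, with the share of all features in brackets. There were 4 genes as reported (4.98%) and 0 with E1A scaling (6.06%). There were 7 with a trended and robust variance (5.36%) and 6 with the slide as a block (5.52%). Within slide 1 there were 0 (4.52%) and within slide 2 there were 6 (3.52%). Leaving out 1 array gave 0 to 14 genes. These were 0 without Rap1-/- 2 (3.93%), 2 without Rap1-/- 3 (4.87%) and 14 without WT 1 (3.30%). There was 1 without WT 3 (3.58%) and there were 2 without WT 4 (6.12%). The median difference was -0.25 to -0.13 when 1 array was left out and 0.041 with E1A scaling. The genes without overlap, 3 as reported, were 0 with normexp, the deposited table, median or E1A scaling and 2 with quantile normalisation, a count added after the data were seen. E1A scaling also turned Irf9 (0.018), Trim25 (0.041), Irgm1 (0.063), Ifi35 (0.11), Ddx58 (0.11), Dtx3l (0.13), Bst2 (0.083), Psmb8 (0.12), Parp14 (0.12), Parp9 (0.14), Ifit3 (0.019), Xaf1 (0.14), Ifit2 (0.13), Dhx58 (0.14), Zbp1 (0.10), Psmb9 (0.15), Oasl2 (0.19), Ifih1 (0.19), Tap1 (0.17), Ifnar1 (0.093), Ifngr1 (0.14), Tap2 (0.073) and Psmb10 (0.13), by the constant it adds. Within slide 1 the sign turned for Gbp3 (0.055), Irgm1 (0.034), Igtp (0.13), Iigp1 (0.19), Bst2 (0.067), Ifit3 (0.052), Dhx58 (0.079), Zbp1 (0.22), Psmb9 (0.10), Tap1 (0.025) and Isg20 (-0.12), and within slide 2 for Eif2ak2 (-0.013), Oasl2 (0.087), Gbp2 (-0.24) and Ifngr1 (0.045). It also turned with median scaling for Oasl2 (0.015), Ifih1 (0.019) and Tap1 (0.0025), and with the deposited table for Psmb10 (0.015). Leaving out 1 array gave -0.11 to 0.029 for Oasl2, -0.11 to 0.029 for Ifih1, -0.16 to 0.051 for Tap1, -0.038 to 0.13 for Gbp2 and -0.041 to 0.11 for Isg20. The causes were not tested.

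Replicate numbers did not pair the samples: residuals of same-numbered arrays correlated at -0.22, -0.13, -0.13 and -0.16. With a replicate block, 4 genes had an unadjusted p under 0.05 and the median stayed at -0.19.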
